A study of Mus musculus with 13 samples.

Results

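The muscle acetylcholine receptor loci comprise 5 genes, Chrna1, Chrnb1, Chrnd, Chrne and Chrng, in 4 windows of GRCm39 that were fixed by position. Genes and windows were chosen with earlier results of these data known. The windows lie on chromosome 2 (73343000 to 73461000, Chrna1), chromosome 1 (87068000 to 87191000, Chrnd and Chrng), chromosome 11 (69625000 to 69737000, Chrnb1) and chromosome 11 (70455000 to 70560000, Chrne). They hold 123 of the 178951 peaks of all 13 lists, and 31 of the 71864 regions formed by merging the peaks of the 12 HA and IgG lists wherever they share at least 1 bp. Binding was read by CUT&RUN, in which a nuclease held by an antibody cuts the chromatin beside the bound protein. The cells were mouse embryonic fibroblasts of a strain that combines Pax7-CreERT2 and Rosa26-LSL-tdTomato with CAG-rtTA3, and they carried a Myf6 with an HA tag on a lentivirus, under doxycycline control. All of them were kept for 24 h in iMPC medium, a serum-containing medium with bFGF. The +Myf6+F/R/C cells received 2 µg/mL doxycycline with 5 µM Forskolin, 5 µM RepSox and 3 µM CHIR99021, the +Myf6 cells doxycycline alone, and the uninduced cells neither. Forskolin activates adenylyl cyclase, RepSox blocks the type I receptor of TGF-β and CHIR99021 blocks the kinase GSK3. Each of these had 2 libraries with an antibody against HA and 2 with IgG, a control antibody that binds no chromatin protein. A single library was made against H3K27me3, the histone mark that Polycomb complexes place on repressed chromatin, from +Myf6+F/R/C cells. RNA was not measured in these libraries, so neither the fibroblast label nor the activity of the genes could be checked.

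The muscle nicotinic acetylcholine receptor is the ligand-gated ion channel of the neuromuscular junction and opens when the motor nerve releases acetylcholine. It is a pentamer of α (Chrna1), β (Chrnb1) and δ (Chrnd) subunits with γ (Chrng) in fetal muscle or ε (Chrne) in adult muscle. Myf6, also called MRF4, is a basic helix-loop-helix factor of the myogenic family. Such factors bind E-boxes (CANNTG) as dimers with E-proteins, and E-boxes in the receptor promoters are textbook targets of the family. The N-box (CCGGAA) of some synaptic genes is known as a site for Ets factors.

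The bases before the gene starts are shown because HA regions lay near most of these starts. RefSeq (build GRCm38.p6, an older build than that of the peaks) gave a promoter for 4 of the 5 members, and the 250 bases before the start are printed 5′ to 3′ on the coding strand. Chrna1 lies on chromosome 2, minus strand, Chrng on chromosome 1, plus strand, and Chrnb1 and Chrne on chromosome 11, minus strand. Capitals mark the E-boxes CAGCTG and CAGGTG (or CACCTG, the same motif on the other strand) and the N-box CCGGAA (or TTCCGG).
Chrna1: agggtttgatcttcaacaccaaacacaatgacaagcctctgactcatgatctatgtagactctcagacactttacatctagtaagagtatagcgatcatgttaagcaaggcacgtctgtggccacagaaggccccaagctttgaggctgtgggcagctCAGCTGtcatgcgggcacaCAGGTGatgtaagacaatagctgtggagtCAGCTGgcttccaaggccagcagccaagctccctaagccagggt
Chrng: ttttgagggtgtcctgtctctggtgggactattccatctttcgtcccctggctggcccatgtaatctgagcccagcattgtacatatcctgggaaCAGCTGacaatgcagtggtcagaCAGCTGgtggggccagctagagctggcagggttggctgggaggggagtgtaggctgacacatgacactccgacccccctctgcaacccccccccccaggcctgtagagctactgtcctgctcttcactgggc
Chrnb1: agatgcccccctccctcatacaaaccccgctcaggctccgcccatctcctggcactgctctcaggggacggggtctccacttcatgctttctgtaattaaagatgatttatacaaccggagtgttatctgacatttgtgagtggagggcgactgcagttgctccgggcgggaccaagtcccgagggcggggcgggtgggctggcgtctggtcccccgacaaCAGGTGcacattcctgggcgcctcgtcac
Chrne: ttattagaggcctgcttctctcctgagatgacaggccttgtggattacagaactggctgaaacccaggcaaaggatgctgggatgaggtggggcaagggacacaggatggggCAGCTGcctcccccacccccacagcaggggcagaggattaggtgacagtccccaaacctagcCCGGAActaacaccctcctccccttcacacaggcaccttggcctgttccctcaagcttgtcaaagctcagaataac

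All 4 promoters held a CAGCTG or a CAGGTG. The share of all promoters with either of them was not worked out, so this count only describes the members. In Chrna1, 2 CAGCTG boxes began 92 and 44 bp before the start, with a CAGGTG between them at 73 bp. Chrng had 2 CAGCTG boxes, at 155 and 132 bp, Chrnb1 a single CAGGTG at 29 bp, and Chrne a single CAGCTG at 138 bp with the N-box at 76 bp. Of the 32851 promoters in the table, 13% held a CAGCTG in the same 250 bases and 1.26% held 2 or more, 17.2% held a CAGGTG or CACCTG, and 12% held the N-box on either strand. The general E-box CANNTG, which includes both of the specific ones, was found in 66.2%. A match is a description of the letters and does not show that a factor binds there. By the approximate placement given next, the HA regions ended 0.4 kb before the start of Chrng and 3.1 kb before that of Chrne. The printed bases of these genes then lay outside the HA regions, though the placement is good only to about 1 kb.

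The files give no gene positions in GRCm39, so gene starts were placed only approximately. Each window is 100 to 102 kb longer than the RefSeq span of its gene or gene pair (100.9 kb for Chrna1, 101.8 kb for Chrnd and Chrng, 100.1 kb for Chrnb1 and 100.7 kb for Chrne). The span was therefore set in the middle of its window, with the 15.2 kb between the starts of Chrnd and Chrng kept as in RefSeq. Such a start is good to about 1 kb, and only if the flanks on both sides are equal, which was not tested. RefSeq lists other genes beside the members, such as Wipf1 and Chn1 at Chrna1, and Ecel1 and Eif4e2 at Chrnd and Chrng. At Chrnb1 they include Polr2a, Zbtb4, Fgf11 and Nlgn2. Regions away from the approximate starts were not assigned to genes.

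The induced HA libraries held 28436 to 38454 peaks in all and had a mean of 30.6 to 61.9 fragments per 10 kb. The uninduced HA libraries held 2179 and 4230 peaks at 30.6 and 23.7 fragments per 10 kb, and the 6 IgG libraries 437 to 1724 peaks at 8.25 to 22.7. The deepest was +Myf6+F/R/C replicate 1. Deeper libraries can call weaker peaks, and the share of the differences below that is due to depth was not tested. The weakest peaks that the IgG lists called had 3 to 5 fragments over the summit, so a place without a peak may still hold a few fragments.

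After induction, every HA library had peaks in all 4 windows. The 4 windows together had 23 and 26 HA peaks in +Myf6+F/R/C cells (replicates 1 and 2), 18 and 15 in +Myf6 cells, and 0 and 3 in uninduced cells. At the mean density of each list over the genome, the same 458 kb would have held 6.63 and 5.52, 4.90 and 6.06, and 0.376 and 0.729 peaks. Each induced library thus had more peaks here than its own mean density gives, and so did uninduced replicate 2, while uninduced replicate 1 had none. The mean runs over the whole genome, gene-poor stretches included, so the excess is a description and was not tested.

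**Figure D1:**
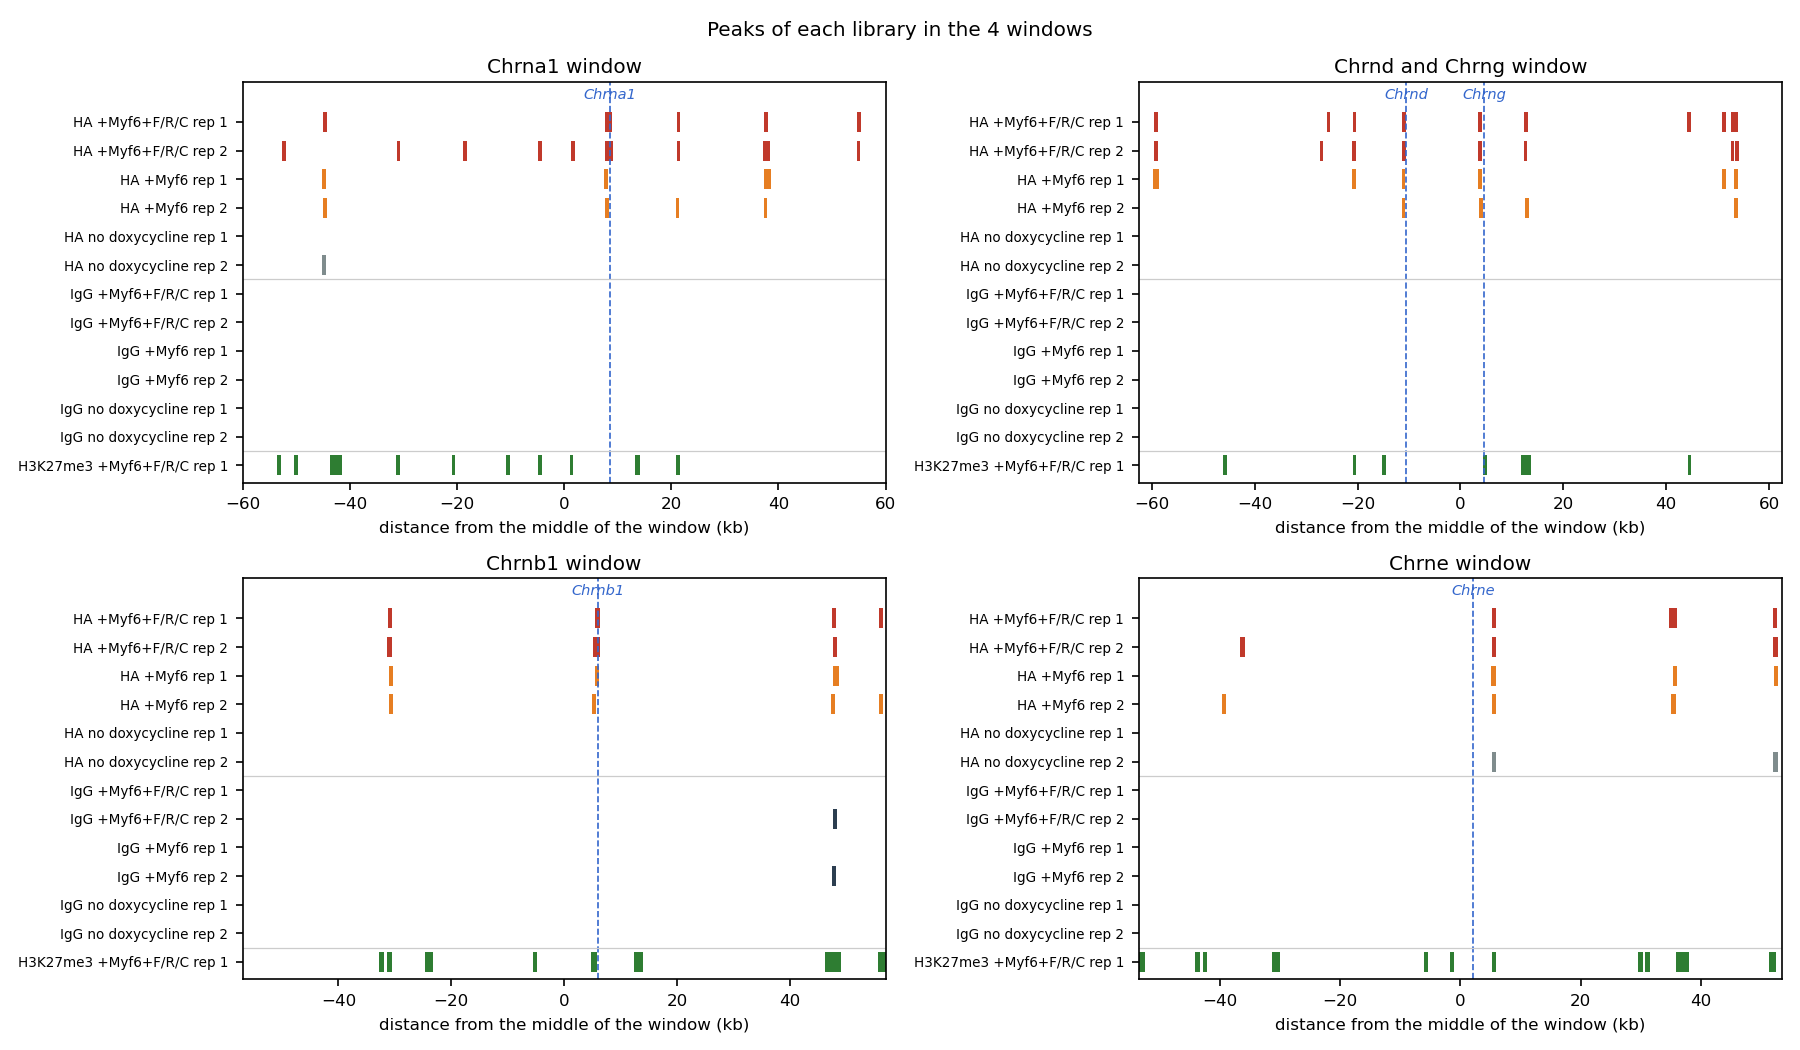
Peaks of the 13 libraries (rows) in the 4 windows, by distance from the middle of the window in kb, with higher coordinates to the right. Peaks narrower than 0.7 kb are drawn 0.7 kb wide, and dashed lines mark the approximate gene starts. HA peaks of induced cells stack up close to the starts of Chrna1, Chrnd, Chrng and Chrnb1, and the IgG rows are empty apart from 2 peaks in the Chrnb1 window.

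HA peaks outnumbered IgG peaks of the same nuclei in every window. In the Chrna1 window the induced HA libraries had 5 and 11 peaks with the compounds and 4 and 4 without, and the 4 induced IgG libraries had none. The mean difference was 6.0 peaks (HA 6.0 ± 3.37, IgG 0; SD, n = 4 each; exact permutation p = 0.0286, two-sided). In the Chrnd and Chrng window the HA libraries had 10, 8, 7 and 4 peaks in the same order and the IgG libraries none, a difference of 7.25 (HA 7.25 ± 2.50; exact permutation p = 0.0286, n = 4 each). In the Chrnb1 window each HA library had 4 peaks, while both replicate 2 IgG libraries had 1 and the others none, a difference of 3.50 (IgG 0.50 ± 0.577; exact permutation p = 0.0286, n = 4 each). In the Chrne window the HA libraries had 4, 3, 3 and 3 peaks and the IgG libraries none, a difference of 3.25 (HA 3.25 ± 0.50; exact permutation p = 0.0286, n = 4 each). The p of 0.0286 is the smallest that 4 libraries against 4 allow. With each HA library paired to the IgG library of its nuclei, exact sign flips gave p = 0.125 in every window, the smallest that 4 pairs allow. The HA and IgG libraries did not overlap in 4 of 4 windows, and the same held for 36.6% of 23200 tiles of 114.5 kb over the genome. Here and in the shares of tiles below, tiles count peaks by summit and windows by any overlap. Tiles also take in gene-poor stretches, while the windows are set around genes. In this and the other comparisons the labels do not say whether replicates are separate cultures, so p-values measure only the spread between these libraries.

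Without doxycycline the HA antibody gave few peaks in these windows. Both +Myf6 libraries had more HA peaks than both uninduced libraries in 4 of 4 windows (39.8% of tiles), and so did both +Myf6+F/R/C libraries (43.3% of tiles). The mean differences of +Myf6 from no doxycycline were 3.50 peaks for Chrna1, 5.50 for Chrnd and Chrng, 4.00 for Chrnb1 and 2.00 for Chrne. With 2 libraries against 2 the smallest exact permutation p is 0.333, which each of the 4 gave, so none could pass 0.05. The 3 uninduced peaks all came from replicate 2 and all lay at places with induced HA peaks, 1 in the Chrna1 window and 2 in the Chrne window.

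**Figure D2:**
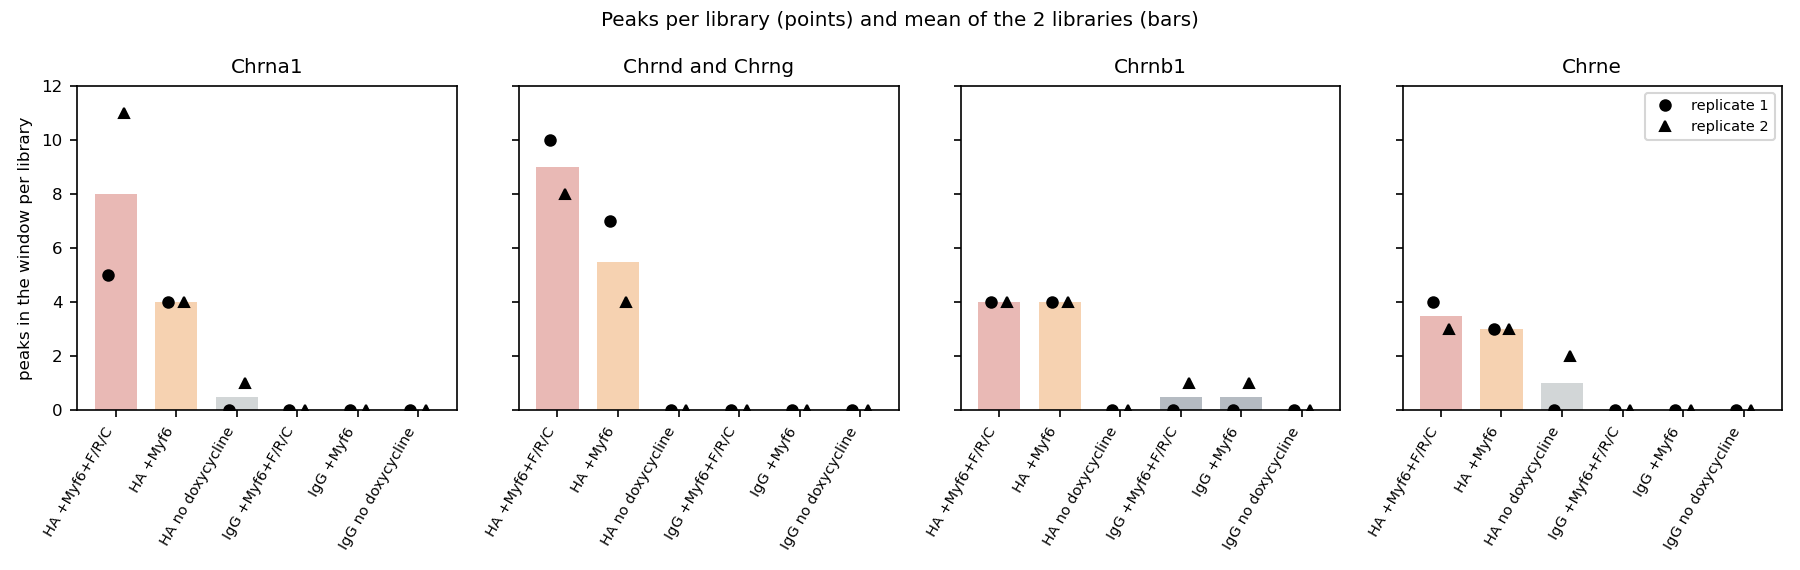
Number of peaks in each window (vertical axis) for the 2 libraries of each antibody and treatment, with circles for replicate 1, triangles for replicate 2 and bars for their mean. The HA libraries of induced cells had 3 to 11 peaks in every window, and no uninduced HA or IgG library had more than 2.

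A region counts as a site of a treatment when both of its HA lists have a peak in it and none of the 8 control lists (2 uninduced HA and 6 IgG) does. The peaks of the 2 lists need not overlap each other, since peaks of other lists can join them into a region. By this rule 14 of the 31 regions were +Myf6+F/R/C sites (45.2%, against 21.0% of all regions) and 8 were +Myf6 sites (25.8%, against 17.5%), with 7 regions being sites of both. A peak in all 4 induced HA lists was found in 9 regions (29.0%, against 14.8%). Another 8 regions were in 3 of these lists, 3 in 2 lists and 11 in a single list. None of the 31 rested on a control list alone. For these last counts the shares over all regions were not worked out, so they only describe the windows.

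Chrna1, the subunit that forms most of the acetylcholine binding site, had its leading region on chromosome 2 at 73409575 to 73411173, 1599 bp wide. It runs from about 0.6 kb before to 1.0 kb after the approximate gene start. The fold over local background was 5.56 and 5.35 in +Myf6+F/R/C cells and 8.14 and 4.46 in +Myf6 cells (replicates 1 and 2), with 32 and 22 against 34 and 10 fragments over the summit. No control list had a peak there. Replicate 1 of +Myf6 was the highest of the 4 and replicate 2 the lowest, so the treatments overlapped, and the pileup scaled for depth had a log2 difference of 0.04 (+Myf6+F/R/C minus +Myf6, n = 2 each, exact permutation p = 1.00). That difference was -0.60 without +Myf6 replicate 2 and 0.69 without +Myf6 replicate 1. The place of the strongest summit differed between the treatments. It was at 73410575 and 73410661 with the compounds and at 73409886 and 73409813 without, so the summits of one treatment lay 86 and 73 bp apart and those of different treatments at least 689 bp. On average the +Myf6+F/R/C summits lay 768.5 bp further towards the upstream side of the gene (exact permutation p = 0.333, n = 2 each, the smallest possible). Over the 10625 regions in all 4 induced lists the median range of the summits was 210 bp, and here it was 848 bp. The region at the approximate start of Chrnb1 had a wider range, of 908 bp. The lower position was not empty with the compounds, since replicate 2 had a second peak with its summit at 73409877 (fold 4.02, 16 fragments) and the replicate 1 peak spans it. This difference was noticed after the values were seen, and the share of all regions whose summits part by treatment was not worked out.

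The Chrna1 window held 4 further regions found in both lists of a treatment. At 73439245 to 73440416 all 4 libraries had a peak, with folds of 5.60 and 4.33 in +Myf6+F/R/C cells and 5.64 and 5.30 in +Myf6 cells. At 73422852 to 73423561 the folds were 5.04 and 6.10 with the compounds, and without them replicate 2 alone had a peak, with a fold of 4.18. At 73456768 to 73457120 only the +Myf6+F/R/C lists had a peak, and a weak one, with folds of 3.70 and 3.87 and 7 and 8 fragments. At 73357024 to 73357639 the +Myf6+F/R/C fold was 6.59 in replicate 1, with no peak in replicate 2, and the +Myf6 folds were 5.36 and 4.98. Uninduced replicate 2 also had a peak at this last place (fold 5.68, 8 fragments), so it is not a site. The other 5 regions of the window were peaks of +Myf6+F/R/C replicate 2 alone, the strongest at 73383369 to 73383582 with a fold of 6.90.

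Chrnd and Chrng encode the δ subunit and the fetal γ subunit and lie side by side, and each had a strong region near its approximate start. The Chrnd region at 87118186 to 87118825 on chromosome 1 ends about 0.1 kb before the approximate start of Chrnd and begins 0.7 kb before it. Its folds were 7.91 and 7.77 in +Myf6+F/R/C cells and 9.31 and 10.4 in +Myf6 cells, on 27 and 18 against 23 and 21 fragments. The fold was lower in both libraries with the compounds. The 4 summits fell within 77 bp, and this region ranked on average at percentile 95.3 of the 4 lists by p-value, the highest of all regions in the windows that were in all 4 lists. Scaled for depth, the pileup had a log2 difference of -0.48 (+Myf6+F/R/C minus +Myf6, n = 2 each, exact permutation p = 0.333, the smallest possible), and unscaled it had one of 0.0045.

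The Chrng region at 87132898 to 87133645 lies about 1.2 to 0.4 kb before the approximate start of Chrng. Its folds were 6.35 and 6.06 in +Myf6+F/R/C cells and 9.33 and 8.68 in +Myf6 cells, on 27 and 21 against 25 and 19 fragments. The fold was again lower in both libraries with the compounds, with a scaled log2 difference of -0.36 (n = 2 each, exact permutation p = 0.333). The local background entering the fold was 208 and 153 fragments per 10 kb in +Myf6+F/R/C cells and 111 and 81.0 in +Myf6 cells, so the pileups were close while the folds were not. Neither the Chrnd nor the Chrng region had a peak in any control list.

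**Figure D3:**
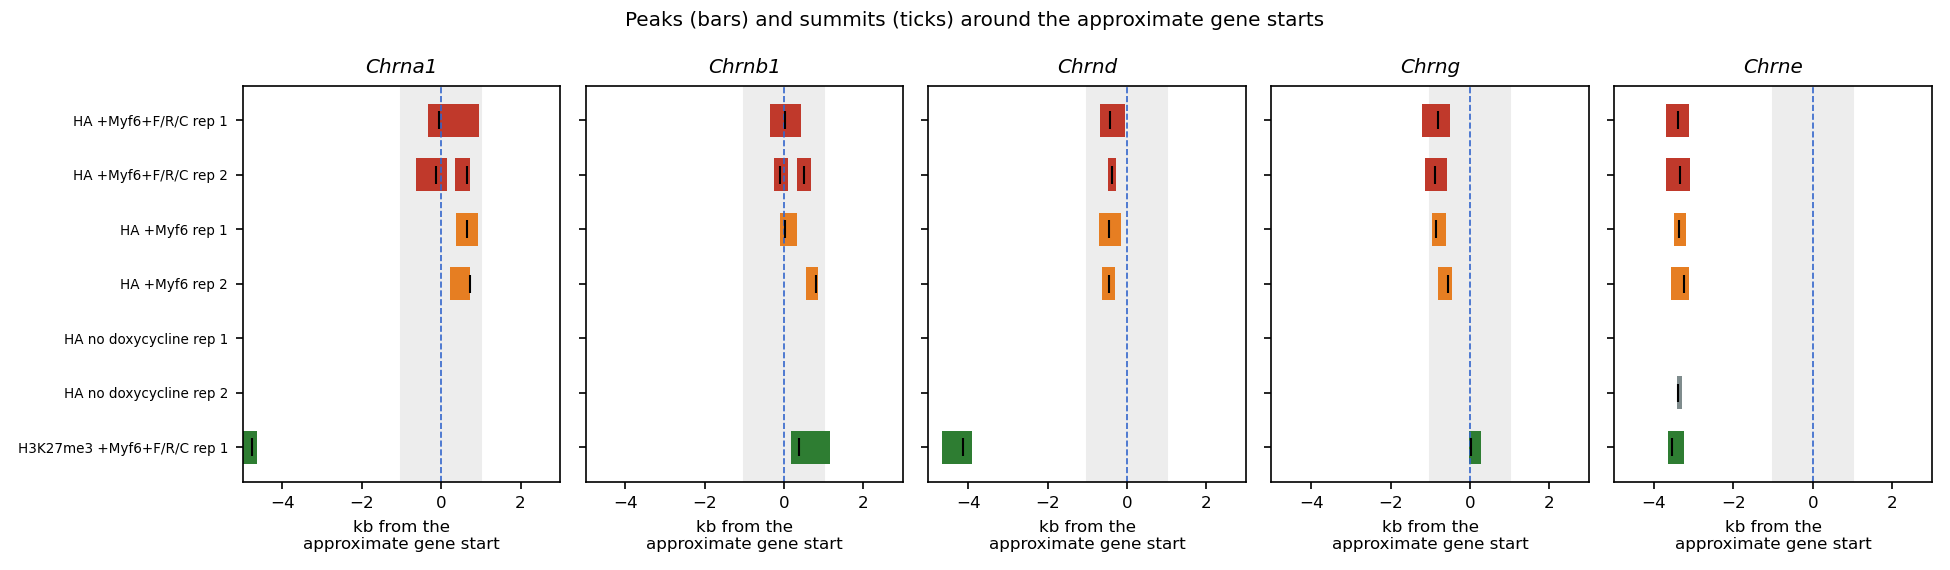
HA and H3K27me3 peaks (bars) and their summits (ticks) from 5 kb before to 3 kb after the approximate start of each gene, in the direction of transcription, with libraries as rows. Grey marks 1 kb to either side of the start, the uncertainty of its place. At Chrna1, Chrnb1, Chrnd and Chrng the peaks of all 4 induced HA libraries reach into the grey band, and at Chrne they lie 3.1 to 3.7 kb before the start.

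The rest of the Chrnd and Chrng window held 5 regions found in both lists of a treatment, all of them in both +Myf6+F/R/C lists. At 87182956 to 87183342 all 4 libraries had a weak peak, with folds of 4.40 and 3.69 with the compounds and 4.41 and 4.43 without. At 87182291 to 87182541, less than 0.5 kb away, peaks were called with the compounds only, with folds of 7.10 and 5.53 and 23 and 15 fragments. The region at 87108623 to 87109069 had folds of 6.46 and 7.19 with the compounds and 4.07 in +Myf6 replicate 1, while +Myf6 replicate 2 had no peak. The region at 87070052 to 87070573 had folds of 5.34 and 5.28 with the compounds and 6.54 in +Myf6 replicate 1. The region at 87142079 to 87142691 had folds of 3.74 and 4.20 with the compounds and 5.38 in +Myf6 replicate 2. A further region at 87180678 to 87180870 was in replicate 1 of both treatments, with folds of 5.21 and 5.91. Another 3 regions were in a single +Myf6+F/R/C list each, with folds of 3.84 to 4.73. No control list had a peak in the window.

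Chrnb1, the β subunit, had a region at its approximate start on chromosome 11 at 69686115 to 69687320. It runs from about 0.4 kb before to 0.8 kb after that start. Its folds were 6.65 and 5.31 in +Myf6+F/R/C cells and 5.88 and 4.22 in +Myf6 cells, on 29 and 17 against 19 and 9 fragments. The treatments overlapped, with replicate 1 above replicate 2 in both, and no control list had a peak. The summits were spread over 908 bp, with that of +Myf6 replicate 2 apart from the others at 69686157. The +Myf6 peaks, at 69686636 to 69687070 (replicate 1) and 69686115 to 69686417 (replicate 2), did not overlap. They were joined only through +Myf6+F/R/C peaks, so the region is a +Myf6 site only by merging. A second site was found at 69649650 to 69650583, with folds of 4.82 and 5.25 with the compounds and 4.33 and 7.08 without.

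The best-ranked region of the Chrnb1 window was not a site. At 69728490 to 69729423 the folds were 7.20 and 7.47 in +Myf6+F/R/C cells and 6.84 and 5.91 in +Myf6 cells. The IgG libraries of replicate 2 also had peaks there, with folds of 4.94 with the compounds (5 fragments) and 7.21 without (11 fragments). In +Myf6 replicate 2 the IgG fold was thus above the HA fold of the same nuclei. The scaled HA pileup had a log2 difference of 0.01 between +Myf6+F/R/C and +Myf6 (n = 2 each, exact permutation p = 1.00). The region at 69736903 to 69737381 straddles the edge of the window. It was a +Myf6+F/R/C site, with a fold of 4.39 in replicate 1 and a replicate 2 peak just past the edge, and +Myf6 replicate 2 had a fold of 6.09.

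Chrne, the adult ε subunit, had no HA peak within 1 kb of its approximate start. The leading region of its window was at 70512765 to 70513372 on chromosome 11, 3.1 to 3.7 kb before that start. Its folds were 6.58 and 7.26 in +Myf6+F/R/C cells and 8.15 and 5.83 in +Myf6 cells, on 18 and 17 against 17 and 10 fragments. The treatments overlapped, with a log2 difference of -0.06 in scaled pileup (n = 2 each, exact permutation p = 1.00) and of 0.42 without scaling. Uninduced replicate 2 had a peak with its summit within the same 608 bp (fold 6.04, 7 fragments), so the region was not a site. Its uninduced fold lay among the induced ones. The pileup per mean fragments per 10 kb was 0.291 and 0.415 in +Myf6+F/R/C cells, 0.401 and 0.327 in +Myf6 cells and 0.296 in that uninduced library. On this measure the uninduced signal lay within the induced range too. The measure takes no account of fragment length, which was 108 bp in that uninduced library and 161 to 172 bp in the induced HA libraries. What the difference in length contributes was not tested. The only site of the window, for +Myf6, was at 70542883 to 70543424. On that side of Chrne RefSeq lists Gp1ba, Slc25a11, Rnf167, Pfn1, Eno3 and Spag7, and the leading region lies on the same side. Folds there were 4.20 in +Myf6+F/R/C replicate 1, with no peak in replicate 2, and 4.31 and 4.27 in +Myf6 cells. The pileups were 29 fragments in +Myf6+F/R/C replicate 1, and 22 and 14 in +Myf6 cells. They stood on a local background of 375, 269 and 156 fragments per 10 kb. Those of the replicate 1 libraries were among the highest of their lists in the windows, while that of +Myf6 replicate 2 was not. At 70559486 to 70560074, across the edge of the window, the folds were 5.13 and 5.05 with the compounds and 5.44 in +Myf6 replicate 1, and uninduced replicate 2 had a fold of 6.03. The other 3 regions of the window were each in a single list, with folds of 5.35 and 3.93 in +Myf6+F/R/C cells and 4.53 in +Myf6 cells.

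Scaled pileups of the treatments were compared over the 9 regions in all 4 induced lists. Both +Myf6+F/R/C libraries had a lower scaled pileup than both +Myf6 libraries in 4 regions (44.4%, against 22.1% of the 10625 such regions of the genome), namely those near Chrnd and Chrng, the one at 87182956 and the one at 73439245. All but the last of these lie in the Chrnd and Chrng window. Both were above in 0 regions, against 13.9% of those of the genome, and 9 regions are too few to tell 0 from such a share. The log2 differences ran from -0.48 to 0.28 with a median of -0.31, against a median of -0.08 over the genome. This rests on the scaling, which lowers each difference by the same amount. Without it both were below in 0 of the 9 regions (2.17% of the genome's) and above in 1, the Chrnb1 region at 69728490 (40.8%), and the log2 differences ran from 0.00 to 0.76 with a median of 0.17, against 0.41 over the genome. The median of the 9 regions lay under that of the genome. Since scaling shifts all regions alike, this gap is the same with and without it by construction. The gap was not tested. Numbers of peaks went the other way, since both +Myf6+F/R/C libraries had more peaks than both +Myf6 libraries in 2 of 4 windows (Chrna1, and Chrnd and Chrng, against 7.09% of tiles). The differences in means were 4.00 and 3.50 peaks (exact permutation p = 0.333 for both, n = 2 each, the smallest possible). The +Myf6+F/R/C libraries were the deeper ones of each number, and what depth contributes to these counts was not tested.

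**Figure D4:**
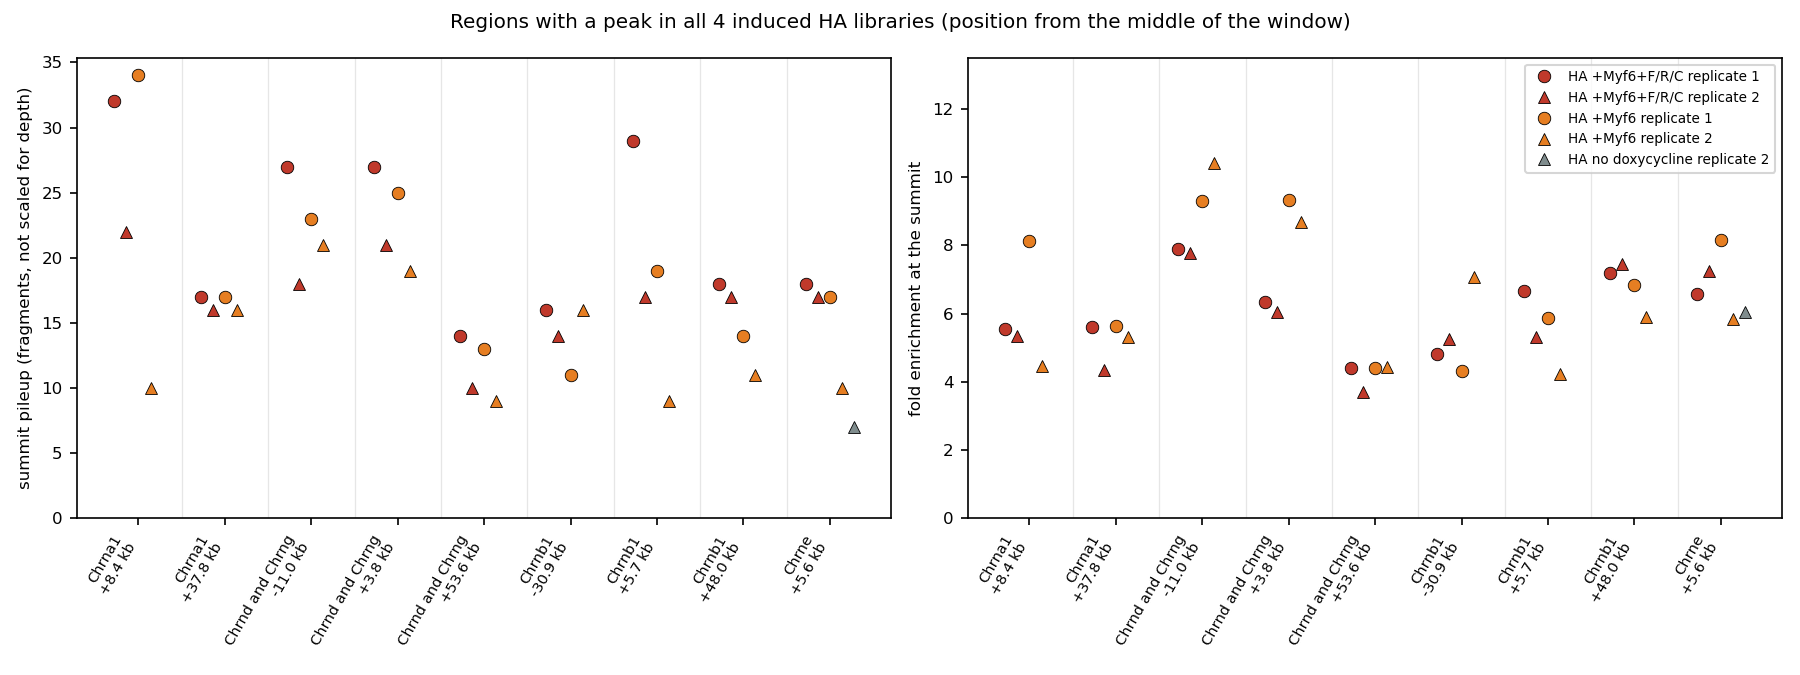
Fragments over the summit (left) and fold enrichment at the summit (right) of the 9 regions with a peak in all 4 induced HA libraries, named by window and by distance of their middle from the middle of the window. Red marks +Myf6+F/R/C, orange +Myf6 and grey the uninduced library, with circles for replicate 1 and triangles for replicate 2. The Chrnd and Chrng regions show lower folds in both +Myf6+F/R/C libraries (6.06 to 7.91) than in both +Myf6 libraries (8.68 to 10.4), and the Chrna1 region shows the widest spread within +Myf6 (8.14 and 4.46).

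Control peaks touched 4 of the 31 regions (12.9%, against 10.7% of all regions). Of the 9 regions in all 4 induced lists, 2 had a control peak, against 27.5% of such regions in the genome, a share near that background. An uninduced HA peak was found at 1 of the 9 (Chrne), against 25.0% of such regions in the genome, and IgG peaks at 1 of the 9 (Chrnb1). The other 7, in all 4 induced lists with no control peak, made 22.6% of the 31 regions, against 10.7% of all regions.

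H3K27me3 peaks were spread through all 4 windows in +Myf6+F/R/C cells, in a library without a replicate. They numbered 10 in the Chrna1 window, 6 in the Chrnd and Chrng window, 8 in the Chrnb1 window and 12 in the Chrne window. They covered 5.70, 2.94, 8.10 and 7.12% of these windows, against 0.994% of the genome. The median fold was 4.53 in the windows and 5.31 in the whole list, so the peaks were more numerous but, by fold over local background, not stronger. By fragments over the summit the windows differed. The median was 56 for Chrnb1 against 18 in the whole list, and below 18 for Chrna1 (12), Chrnd and Chrng (8) and Chrne. The widest peak was at 69727247 to 69730048 in the Chrnb1 window (2802 bp, fold 4.30), over the region with the IgG peaks.

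The mark met the HA regions of the subunits unequally. The HA regions near the starts of Chrna1, Chrnd and Chrng had no H3K27me3 peak, the nearest ones being 3999, 3206 and 427 bp away. The one near Chrng was weak (fold 4.22, 7 fragments), and 1 at 87141180 to 87143153, with 72 fragments, lay further along the same window. The Chrnb1 region at the start overlapped a peak at 69685807 to 69686778 (fold 6.59, 28 fragments), and the Chrne region overlapped a weak one at 70512898 to 70513322 (fold 4.64, 9 fragments). In all, 4 of the 9 regions in all 4 induced lists overlapped the mark (44.4%, against 40.0% of such regions in the genome), and so did 7 of the 15 sites of either treatment (31.2% in the genome). Of all 31 regions 14 overlapped the mark (45.2%, against 26.1% of all regions), among them each of the 4 regions of the Chrnb1 window.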

How the data were processed

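MACS2, deepTools and DiffBind are named with the build GRCm39, per the submitters' processing notes. Which versions and which aligner were used is not stated in the labels. The deposited files were narrow-peak lists, 1 per library, with a fold enrichment (a ratio to local background), the −log10 of p and q values, and a score of 10 times the −log10 q, all by the authors. Peaks on chromosomes 1 to 19, X and Y were used. Whole summit pileups and expected pileups were recovered from each deposited fold and −log10 p (Poisson tail), and matched within 0.002 for at least 99.9% of peaks of every list. The lowest expected pileup and the narrowest peak gave the depth. In a region with several peaks of a library, the one with the best p was used. Scaled pileup is the summit pileup over the mean fragments per 10 kb. Named regions were those in both HA lists of an induced treatment. Tests were exact permutation tests over libraries, two-sided, with Python 3.11.15, NumPy 2.4.6 and SciPy 1.17.1. Recovery and merging were tested on simulated data. Members, windows and lists were chosen with earlier results of these data known. The nuclei of a replicate were divided between HA and IgG, per the labels' protocols, which pairs those libraries. Their replicate differences over regions correlated with r between 0.00064 and 0.011. The annotation used here is of another build, so counts of sites at other synaptic genes, and the alternative that takes each gene with 5 kb on both sides, were not analysed here. The direction of Chrnd was taken as that of Chrng.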

Additional observations from a re-analysis of the deposited data

Results flagged for a closer look

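Among the 4 induced HA libraries, +Myf6+F/R/C replicate 2 stood apart in the Chrna1 window with 11 peaks, where the others had 5, 4 and 4. Of its 11 peaks, 5 lay in regions found in no other HA or IgG list. In the Chrne window +Myf6+F/R/C replicate 1 had 4 peaks where the others had 3 each, a difference of a single peak. There were 8 sets of 4 libraries, and Dixon's 95% critical value was applied to those whose counts were not all equal. The HA set of the Chrnb1 window and the IgG sets of the other windows had equal counts and could not be flagged. Among the sets tested chance flags about 1 in 20, and small whole numbers with ties are flagged more readily.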

How the results depend on the processing

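Counts of sites depended on the threshold. With −log10 q of at least 5 in the HA lists, 8 +Myf6+F/R/C sites were left of 14, and 3 +Myf6 sites of 8. With the 4 induced HA lists shortened to equal length there were 10 and 8, so the gap between the treatments was 2 sites in place of 6. With an overlap of at least 50% of the shorter peak required there were 13 and 7. Without a replicate, when a single list suffices, there were 19 to 21 and 11 to 12. The excess of HA over IgG peaks kept its direction under all 11 alternatives in each window, but with −log10 q of at least 5 it was 3.25 peaks for Chrna1, 4.25 for Chrnd and Chrng, 2.50 for Chrnb1 and 2.50 for Chrne. With the replicate block it was 6.0, 7.25, 3.50 and 3.25 peaks (Chrna1, Chrnd and Chrng, Chrnb1, Chrne) but could not pass 0.05 with 4 pairs. Without any 1 library it was 4.33 to 6.67, 6.33 to 8.33, 3.33 to 3.67 and 3.00 to 3.33, and for Chrnd and Chrng it no longer passed without any 1 of the IgG libraries (exact permutation p = 0.0571, 3 libraries against 4). More HA peaks with +Myf6 than without doxycycline were found under every alternative. The replicate block left the differences at 3.50, 5.50, 4.00 and 2.00, and −log10 q of at least 5 gave 3.00, 3.50, 2.50 and 2.00. For Chrne the difference was 1.00 to 3.00 when a library was left out, and it rested on uninduced replicate 2: it was 3.00 without that library and 1.00 without uninduced replicate 1.

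Differences of scaled pileup between +Myf6+F/R/C and +Myf6 at the best-ranked region of each window changed sign in several cases, and none could pass 0.05. For Chrnb1 that region is the one at 69728490 with the IgG peaks, not the one at the gene start. On the deposited fold they were -0.14 for Chrna1 and 0.0035 for Chrne, and without scaling 0.53 for Chrna1, 0.0045 for Chrnd and Chrng, 0.50 for Chrnb1 and 0.42 for Chrne. Among the 9 regions in all 4 induced lists, both +Myf6+F/R/C pileups were below both +Myf6 pileups in 0 without scaling and above in 1, against 4 and 0 with it, a count added after seeing the data. Without any 1 library they ran from -0.60 to 0.69 for Chrna1 (-0.60 without +Myf6 replicate 2), from -0.65 to -0.31 for Chrnd and Chrng, from -0.25 to 0.27 for Chrnb1 (-0.25 without +Myf6+F/R/C replicate 2, -0.05 without +Myf6 replicate 1) and from -0.32 to 0.20 for Chrne (0.20 without +Myf6+F/R/C replicate 1, 0.09 without +Myf6 replicate 1). The replicate block left them at 0.04, -0.48, 0.01 and -0.06. The cause was not tested. Replicate numbers of the 2 induced treatments share only a number and a prefix of the library name, with r = 0.11 over regions. The genes with 5 kb to either side were not run as an alternative, since no annotation of the build was used here.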
